A study of Homo sapiens with 6 samples.

Results

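The replication-dependent histone genes encode the bulk of the histone protein that wraps newly copied DNA. They were taken from the count table by symbol: H1-1 to H1-6, and every gene named H2AC, H2BC, H3C or H4C followed by a number. This rule found 45 genes of the 29538 in the table, namely 2 H1, 12 H2A, 14 H2B, 8 H3 and 9 H4 genes. Their messenger RNA was measured in MDA-MB-231, an established human breast cancer cell line with mesenchymal features, after siRNA knockdown of BYSL, which encodes bystin, a protein of small ribosomal subunit assembly. Each group held 3 cultures that the submitters call independent biological replicates. The control cultures (siNC) received a negative-control siRNA whose sequence is not in the labels, and the knockdown cultures (siBYSL) received a single siRNA duplex against BYSL. Both groups were of the same line, received 160 pmol of siRNA per well with a lipid reagent, had their medium changed at 6 h and were harvested at 48 h. RNA was captured by its poly(A) tail before strand-specific library preparation.

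A nucleosome core is built from pairs of histones H2A, H2B, H3 and H4, and histone H1 binds the linker DNA between cores. Most genes for these histones lie in clusters on chromosomes 6 and 1, are transcribed in S phase under the coactivator NPAT, a substrate of cyclin E-CDK2, and lack introns. Their mRNAs usually end not in a poly(A) tail but in a stem-loop that is bound by SLBP and cut by the U7 snRNP, which carries LSM10 and LSM11. Several of these genes can also yield spliced or longer polyadenylated mRNAs, and poly(A) capture takes up mainly such polyadenylated forms.

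The stem-loop that defines this gene class was searched in gene models of GENCODE 29 (build GRCh38), to which 43 of the 45 members matched by identifier. H3C2 and H3C3 did not match and enter no statement drawn from these models. Of the matched members, 33 lie on chromosome 6 and 10 on chromosome 1. The pattern was GGNNCTTNNNAGNNCC on the transcribed strand after the stop codon, with 6 stem pairs closing a loop of 4 bases. It was present in 22 members, or 51.2% of the 43, against 0.173% of 13305 other tested protein-coding genes. Only 25 members (58.1%) had any annotated bases after the stop codon, so a member without a match often had no sequence to search. The sequences below are from the models of 5 members that rose after knockdown and of H2BC4, the divergent neighbour of H2AC6. The stem is in capitals and the loop in lower case.
H2AC6, chr6:26124669-26124684, plus strand: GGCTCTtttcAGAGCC
H2AC11, chr6:27133515-27133530, plus strand: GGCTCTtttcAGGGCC
H2BC5, chr6:26158587-26158602, plus strand: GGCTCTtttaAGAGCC
H2BC4, chr6:26123472-26123487, minus strand: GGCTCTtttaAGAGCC
H2BC15, chr6:27865778-27865793, plus strand: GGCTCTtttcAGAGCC
H4C8, chr6:26285131-26285146, minus strand: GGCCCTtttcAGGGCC
The H2AC6 form was shared by 12 members, and the H2BC5 form was found in 2, H2BC4 and H2BC5. The H2BC15 match, counted among the 12, lies near the far end of its model (chr6:27837760-27865798). The promoter of H2BC15 lies at chr6:27838319-27838618, and its model overlaps an H2A gene on the same strand. This match may therefore be the loop of that H2A gene. The H4C8 form was shared by 3 H4 genes, and another 3 H4 genes carried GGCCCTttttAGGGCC, which differs in its loop.

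Promoters from RefSeq (GRCh38.p14), reaching from 250 bases before to 50 bases after the annotated start, were given for 41 of the 45 members. The motifs below were searched on both strands. The TATA-box core TATAAA was present in 75.6% of member promoters and in 14% of all 27305 promoters in the table. CCAAT was present in 85.4% of member promoters and in 39.7% of all. The octamer ATTTGCAT, bound by OCT1, was present in 18 member promoters (43.9%) against 2.19% of all promoters. The octamer was in 11 of 14 H2B and 7 of 11 H2A promoters and in none of the H1, H3 and H4 promoters. Among members that rose after knockdown it was in 6 of 9, and among the tested members with a promoter that did not rise in 5 of 11. Windows of divergent neighbours overlap, so some sites were counted more than once. H2AC11 and H2BC11 share a site, as do H2AC20 and H2BC21. H2AC6, which rose, shares its site with H2BC4, which was not called. These counts are therefore not of separate sites. Promoters of 3 members that rose are printed 5′ to 3′, with motifs on either strand in capitals. Only exact matches were searched. H2AC11 and H2AC6 carry the octamer, and H2BC5 holds no exact match to it. Any part of the octamer in the rises was not tested.
H2AC11, chr6:27132793-27133092, plus strand: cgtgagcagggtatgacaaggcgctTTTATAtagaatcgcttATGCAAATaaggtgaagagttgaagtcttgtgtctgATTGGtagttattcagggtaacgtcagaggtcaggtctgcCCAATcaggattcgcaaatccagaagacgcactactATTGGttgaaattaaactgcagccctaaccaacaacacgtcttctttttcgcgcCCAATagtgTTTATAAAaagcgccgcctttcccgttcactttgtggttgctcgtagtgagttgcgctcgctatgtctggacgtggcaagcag
H2AC6, chr6:26123922-26124221, plus strand: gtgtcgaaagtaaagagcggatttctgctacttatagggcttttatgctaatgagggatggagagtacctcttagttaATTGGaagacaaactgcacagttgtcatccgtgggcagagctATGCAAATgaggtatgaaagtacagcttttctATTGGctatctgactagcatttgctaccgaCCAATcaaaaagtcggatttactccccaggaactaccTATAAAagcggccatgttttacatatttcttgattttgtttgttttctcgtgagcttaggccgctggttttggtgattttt
H2BC5, chr6:26157871-26158170, plus strand: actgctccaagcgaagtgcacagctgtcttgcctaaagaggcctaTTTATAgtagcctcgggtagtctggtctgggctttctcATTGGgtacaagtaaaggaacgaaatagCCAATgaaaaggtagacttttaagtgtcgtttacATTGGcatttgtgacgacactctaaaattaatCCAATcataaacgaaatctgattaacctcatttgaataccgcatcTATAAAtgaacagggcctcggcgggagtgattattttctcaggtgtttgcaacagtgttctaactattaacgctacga
The H2AC11 window also holds most of the promoter of H2BC11, which is transcribed the other way. H4C8, which rose, held none of the 3 motifs in its window. A match describes letters in a window and not a bound site.

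Library totals ran from 28606048 to 30476744 counts in siNC and from 27754883 to 32088817 in siBYSL. BYSL itself had 2908, 2648 and 3006 counts in siNC and 459, 519 and 502 in siBYSL, a log2 fold change of -2.61 (SE 0.067, adjusted p = 9.4e-09 by the edgeR quasi-likelihood test). All log2 fold changes are siBYSL over siNC, and CPM is the usual count scaled to library size, here the TMM-adjusted size, and is not divided by gene length. Of the 16 marker genes looked up, 11 were tested, 4 rose and 3 fell. The mesenchymal marker VIM averaged 2404 CPM in siNC, while the markers ESR1, PGR, PTPRC, ALB and KRT14 were each under 1 CPM. The markers PECAM1, GATA3, CDH1, EPCAM and KRT18 were not that low. Their siNC means were 5.32 CPM for PECAM1, 13.3 CPM for GATA3, 4.48 CPM for CDH1, 14.4 CPM for EPCAM and 586 CPM for KRT18. PECAM1 and GATA3 did not pass the test. The epithelial genes CDH1 (4.48 to 9.18 CPM) and EPCAM (log2 fold change 0.54) rose, as did FN1 (0.54) and CD44 (0.19), which mesenchymal cells express. AXL (-0.51), CAV1 (-0.47) and VIM (-0.21) fell, and ZEB1 and the keratin gene KRT18 did not pass the test. Any part of these shifts in the histone results was not tested.

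Histone counts were a small share of each library and were higher after knockdown. The members summed to 3719, 3568 and 3697 counts in siNC and to 4548, 5599 and 5416 in siBYSL. As a share of each library, siNC averaged 0.0125% ± 0.00035 (SD, n = 3) and siBYSL averaged 0.0176% ± 0.0013 (SD, n = 3), and the groups did not overlap. On the TMM scale the summed CPM was 1.34 times as high in siBYSL. Of the 45 members, 22 passed the filter on low counts, which asked for 0.347 CPM, about 10 counts, in at least 3 libraries. Among these 22, 9 rose, 2 fell and 11 did not pass the test at an adjusted p of 0.05 (edgeR quasi-likelihood F test, Benjamini-Hochberg over 16412 genes). Across all tested genes, 18.5% rose and 18.4% fell. The median log2 fold change of the 22 was 0.27, and that of all tested genes 0.0066. In 17 of the 22, all 6 libraries were past the filter level, and these held 7 rises and both falls. H2BC18 passed only through its siBYSL libraries, so its rise is tied to the filter. In poly(A)-captured bulk RNA, changes in cells in S phase, in histone mRNA per cell and in its polyadenylated share cannot be told apart.

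**Figure D1:**
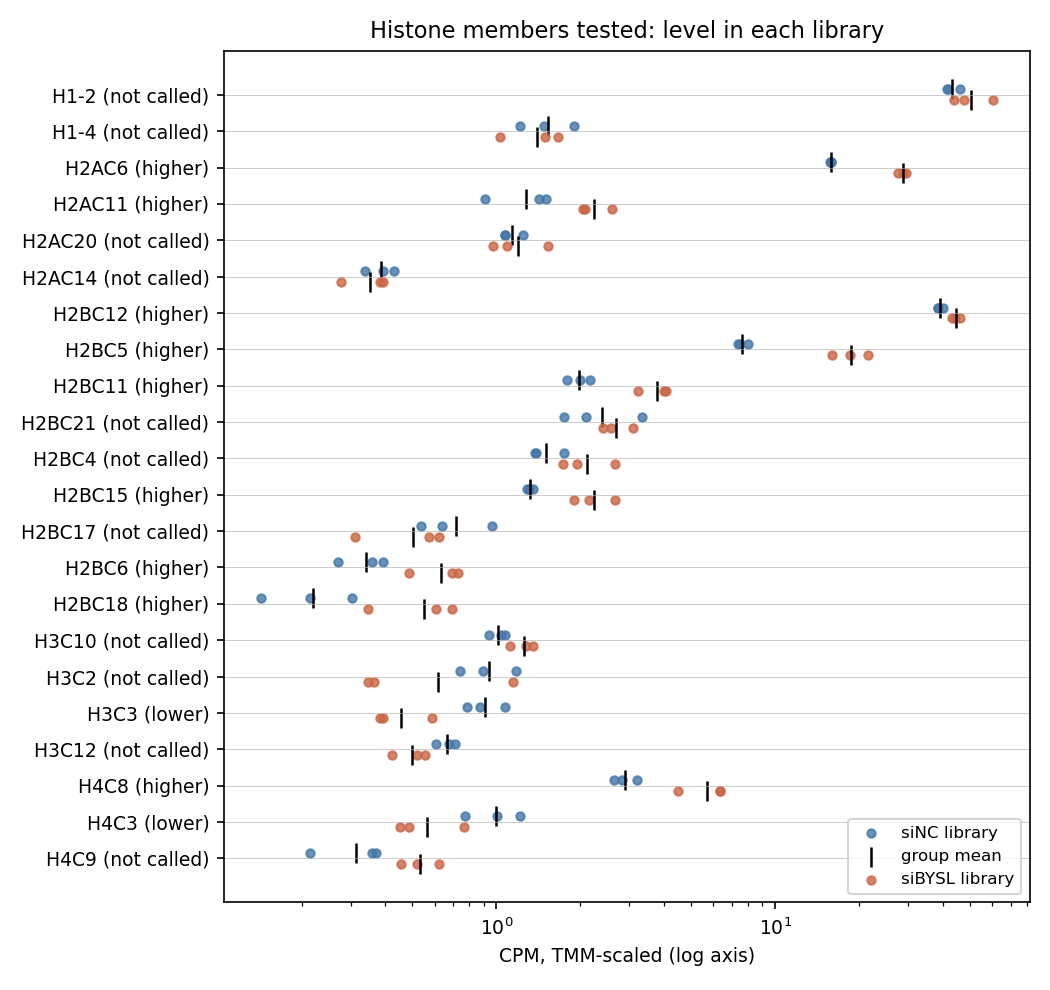
CPM of each tested histone gene in the 3 siNC and 3 siBYSL libraries, on a log axis, with 1 point per library and a bar at each group mean. H2AC6, H2BC5, H2BC11, H2BC15 and H4C8 are among the genes whose siBYSL points lie wholly above their siNC points, while H3C3 lies below.

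A few genes held most of the histone signal. H1-2 had 31.1% of all member counts, H2BC12 27.8%, H2AC6 14.9% and H2BC5 8.83%, together 82.6%. The sum over all members therefore follows mainly these 4 genes. With the 9 genes that rose left out, the other 36 members summed to 62.8, 55.7 and 55.0 CPM in siNC and to 57.3, 61.1 and 75.8 CPM in siBYSL, and these groups overlapped. The 9 were removed by their calls in these same data, so a smaller difference in the rest was built in. The 36 held 40.7% of all member counts, most of it from H1-2, so their sum follows mainly that gene.

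The linker histone genes did not pass the test. H1-2 had 1288, 1157 and 1237 counts in siNC and 1260, 1575 and 1744 in siBYSL. The siNC mean was 43.0 ± 2.67 CPM and the siBYSL mean 50.6 ± 8.82 CPM (SD, n = 3), and the groups overlapped. Its log2 fold change was 0.23 (SE 0.106, adjusted p = 0.106). It passed the test when siBYSL replicate 1, the lowest siBYSL library, was left out (log2 fold change 0.33, adjusted p = 0.0178), with scaling by library totals (adjusted p = 0.0300) and with no filter (adjusted p = 0.00907). Without siBYSL replicate 3, the highest siBYSL library, its log2 fold change was 0.0886 (adjusted p = 0.219). H1-4 had 53, 34 and 44 counts in siNC and 48, 34 and 43 in siBYSL, with an adjusted p of 0.670.

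Among the 12 H2A genes, 4 were tested, 2 rose and none fell, also none at an unadjusted p under 0.05. H2AC6, the H2A gene with the most counts, had 445, 443 and 466 counts in siNC and 795, 978 and 831 in siBYSL. In CPM the siNC libraries lay at 15.9, 15.8 and 15.7 and the siBYSL libraries at 27.6, 29.6 and 28.9, so the gap between the groups was far larger than the spread within either. The log2 fold change was 0.86 (SE 0.064, adjusted p = 6.0e-06). This gene is annotated at chr6:26124145-26139116 on the plus strand, a model far longer than a histone coding region.

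H2AC11 (chr6:27133042-27135291, plus strand) had 42, 40 and 27 counts in siNC and 60, 86 and 59 in siBYSL. The groups did not overlap, and its log2 fold change was 0.82 (SE 0.213, adjusted p = 0.0117). This rise lost its call without siNC replicate 3 (adjusted p = 0.0531) or without siBYSL replicate 2 (adjusted p = 0.0608). H2AC20 had 30, 35 and 32 counts in siNC and 28, 36 and 44 in siBYSL (adjusted p = 0.827), and H2AC14 had 11, 12 and 10 against 8, 13 and 11 (adjusted p = 0.804). Of the 150-base words in the H2AC14 model, 76.9% also occur in H2AC13, so counts could be split between those genes.

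The H2B genes held 6 of the 9 rises, with 6 of 9 tested members higher and none lower, also none at an unadjusted p under 0.05. H2BC5 (chr6:26158146-26171349, plus strand) had 223, 209 and 218 counts in siNC and 460, 615 and 618 in siBYSL. Its mean went from 7.59 ± 0.339 to 18.7 ± 2.76 CPM (SD, n = 3), with every siBYSL library far above every siNC library. The log2 fold change of 1.30 (SE 0.112, adjusted p = 1.4e-05) was the highest among members with over 100 counts.

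H2BC12 (chr6:27146418-27146798, minus strand), the H2B gene with the most counts, rose by little. It had 1077, 1121 and 1144 counts in siNC and 1249, 1461 and 1325 in siBYSL. The siNC mean was 39.0 ± 0.841 CPM and the siBYSL mean 44.5 ± 1.38 CPM (SD, n = 3). The groups did not overlap, and the log2 fold change was 0.19 (SE 0.056, adjusted p = 0.0221). This call was lost without siNC replicate 1 (adjusted p = 0.0896), siNC replicate 2 (0.0534), siNC replicate 3 (0.0999) or siBYSL replicate 2 (0.0687). It was also lost in edgeR with no filter (0.0578) and with the replicate block (0.0574).

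H2BC11 (chr6:27125897-27132750, minus strand) had 50, 61 and 59 counts in siNC and 93, 132 and 117 in siBYSL, with a log2 fold change of 0.92 (SE 0.153, adjusted p = 9.0e-04). H2BC15 (chr6:27837760-27865798, plus strand) had 36, 38 and 39 counts in siNC and 77, 63 and 62 in siBYSL, with a log2 fold change of 0.76 (SE 0.184, adjusted p = 0.00815). In both genes every siBYSL library was above every siNC library, and both calls held with any single library left out. The H2BC15 model overlaps H2AC15 on the other strand and another H2A gene on its own strand, and whether counting used strand is not given in the sources used here.

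H2BC6 and H2BC18 rose from few counts. H2BC6 had 10, 11 and 8 counts in siNC and 21, 16 and 20 in siBYSL (log2 fold change 0.89, SE 0.315, adjusted p = 0.0467). Its adjusted p was between 0.0769 and 0.162 without siNC replicate 1, 2 or 3 or siBYSL replicate 1 or 3. The H2BC6 call was also lost with the DESeq2 Wald test (adjusted p = 0.144) and, in edgeR, with no filter (0.0822) and the replicate block (0.0696). H2BC18 (chr1:149782689-149812373, minus strand), the called member on chromosome 1, had 6, 4 and 9 counts in siNC and 10, 20 and 20 in siBYSL (log2 fold change 1.30, SE 0.403, adjusted p = 0.0272). Its adjusted p was 0.0783 without siNC replicate 1, 0.104 without siNC replicate 2, 0.0907 without siBYSL replicate 2 and 0.0563 without siBYSL replicate 3. With the DESeq2 Wald test the adjusted p of H2BC18 was 0.0607. The H2BC18 model shares 10.3% of its 150-base words with H2B pseudogenes, and H2BC6 overlaps an antisense gene.

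The 3 other tested H2B genes did not pass the test. H2BC4 had 49, 39 and 41 counts in siNC and 50, 88 and 56 in siBYSL (log2 fold change 0.50, SE 0.207, adjusted p = 0.083), and it passed without siBYSL replicate 1 (adjusted p = 0.0434) or siBYSL replicate 3 (adjusted p = 0.0452). H2BC21 had 93, 59 and 52 counts in siNC and 89, 80 and 74 in siBYSL (adjusted p = 0.588), with siNC replicate 1 standing above the other siNC libraries. H2BC17 had 27, 15 and 19 counts in siNC and 9, 19 and 18 in siBYSL (adjusted p = 0.283).

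Of the 4 tested H3 genes 1 fell and none rose, also none at an unadjusted p under 0.05. H3C3 had 30, 22 and 26 counts in siNC and 17, 13 and 11 in siBYSL, so its groups did not overlap. Its log2 fold change was -1.0 (SE 0.278, adjusted p = 0.0161), and the call was lost without siNC replicate 1 (adjusted p = 0.0670) or siBYSL replicate 2 (adjusted p = 0.0708). H3C2 had 25, 33 and 22 counts in siNC and 10, 12 and 33 in siBYSL. A single library set its outcome: the adjusted p was 0.279 with all libraries and 0.00322 without siBYSL replicate 3, where the log2 fold change was -1.39. H3C10 had 29, 30 and 28 counts in siNC and 37, 37 and 39 in siBYSL (adjusted p = 0.273), and H3C12 had 17, 20 and 20 against 16, 14 and 15 (adjusted p = 0.239). Their groups lay apart in opposite directions, but neither passed the test. The H3C12 and H2AC17 models overlap on the same strand. DESeq2 and limma-voom likewise called no H3 gene higher and no H2A or H2B gene lower.

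Of the 3 tested H4 genes, H4C8 rose and H4C3 fell. H4C8 (chr6:26277609-26285638, minus strand) had 74, 79 and 95 counts in siNC and 129, 210 and 182 in siBYSL. The siNC mean was 2.89 ± 0.283 CPM and the siBYSL mean 5.71 ± 1.08 CPM (SD, n = 3). All its siBYSL libraries were above all its siNC libraries, and the log2 fold change was 0.98 (SE 0.160, adjusted p = 7.8e-04). H4C3 (chr6:26103876-26104310, plus strand) had 28, 34 and 23 counts in siNC and 13, 16 and 22 in siBYSL, with a log2 fold change of -0.81 (SE 0.289, adjusted p = 0.0466). Its adjusted p was 0.105 without siNC replicate 1, 0.169 without siNC replicate 2, 0.126 without siBYSL replicate 1 and 0.153 without siBYSL replicate 2. The H4C3 call was also lost with the DESeq2 Wald test (adjusted p = 0.0912) and, in edgeR, with library totals (0.0638), upper-quartile factors (0.0600) and the replicate block (0.0620). H4C9 had 10, 6 and 11 counts in siNC and 15, 15 and 18 in siBYSL, with no overlap but an adjusted p of 0.101. Genes for the same protein family thus included both a rise and a fall.

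Summed by family, H2A and H2B shifted with little spread, while H1 and H3 overlapped between groups. The H2A sum was 19.9, 19.8 and 19.0 CPM in siNC and 31.5, 34.3 and 33.5 CPM in siBYSL, a ratio of means of 1.69. The H2B sum was 56.4, 56.2 and 54.1 CPM against 72.0, 75.9 and 80.6 CPM, a ratio of 1.37. The H4 sum was 5.01, 4.89 and 4.88 CPM against 5.89, 7.81 and 8.40 CPM, a ratio of 1.5. For the H3 genes the values were 3.79, 3.96 and 3.44 CPM in siNC and 2.91, 2.72 and 3.47 CPM in siBYSL, a ratio of 0.814. The H1 sum was 48.0, 42.5 and 43.2 CPM against 45.3, 48.7 and 62.0 CPM, a ratio of 1.17. Single genes set some of these sums. H2AC6 held 14.9% of all member counts, against 17.6% for the whole H2A family, and H4C8 held 2.90%, against 4.11% for H4. These sums are descriptions without a test.

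**Figure D2:**
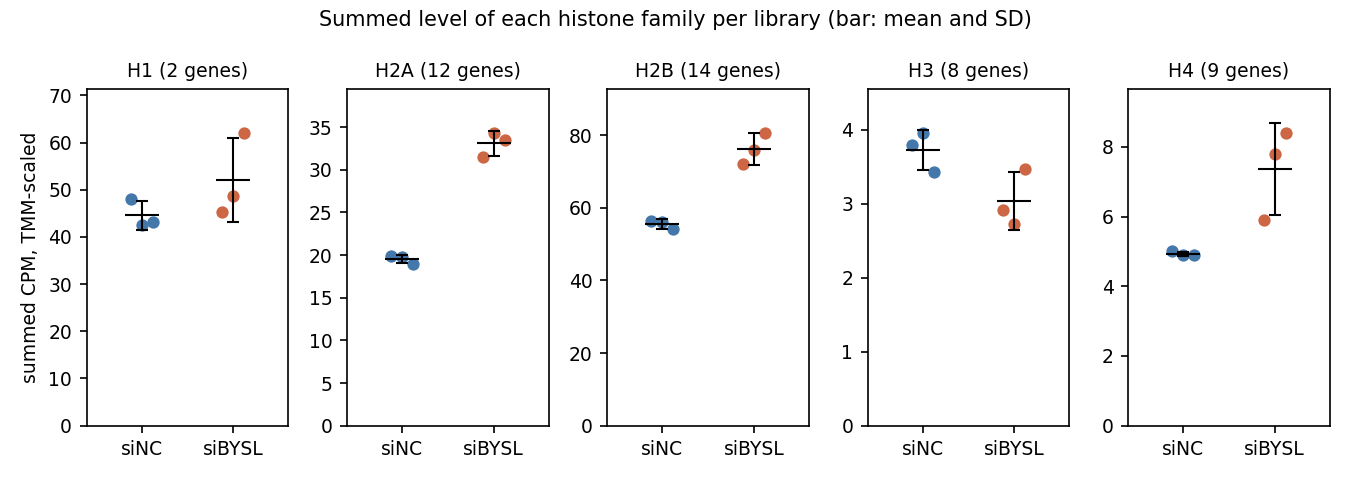
Summed CPM of the members of each histone family in each library, with 1 point per library and bars for the mean and SD of each group. The siBYSL points of H2A, H2B and H4 lie above all siNC points, and the points of H1 and H3 overlap between groups.

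The 23 members that did not pass the filter held 1.41% of all member counts. They summed to 66, 66 and 67 counts in siNC and to 54, 66 and 54 in siBYSL, 0.824 times as many on the CPM scale. Their totals over the 6 libraries ran from 1 to 58 with a median of 9, and 12 of them had fewer than 10 counts. H4C2 had the most, with 21, 10 and 9 counts in siNC and 6, 7 and 5 in siBYSL. H4C2 was called lower when no filter was applied and when siNC replicate 3 was left out, and was not tested under the standard filter with all libraries. With a median of 9 counts in 6 libraries, the depth allows little to be said of most single genes in this group. Several share nearly all of their sequence with a copy (H2AC18, H2AC19, H3C14, H4C12, H4C14 and H4C15), so their counts are uncertain.

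Annotated transcript structure was uneven among the members. A poly(A) signal, AATAAA or ATTAAA, stood in the last 50 bases of an annotated transcript in 8 of the 9 members that rose, in 3 of the 11 other tested and matched members, in 44.2% of the 43 matched members and in 89.9% of the 13305 other tested protein-coding genes. A transcript with more than 1 exon was annotated for 7 of the 9, for 2 of the 11, for 27.9% of matched members and for 98.5% of the other genes. Of the 11 tested members with the signal, 8 rose and none fell, with a median log2 fold change of 0.86 and a range from 0.17 to 1.30. Their summed CPM was 37.8, 36.1 and 35.1 in siNC and 63.1, 70.3 and 72.1 in siBYSL, without overlap. Of the 9 tested members without it, 1 rose (H2BC12) and 1 fell (H4C3), with a median of -0.13 and a range from -0.81 to 0.74. Those without the signal summed to 90.9, 86.8 and 85.6 CPM in siNC and to 91.7, 96.3 and 112 CPM in siBYSL, also without overlap. That sum follows mainly H1-2 and H2BC12, which together held 58.9% of all member counts. The models of 6 of these 9 members (H1-2, H2AC20, H2AC14, H2BC12, H2BC17 and H3C12) have no annotated bases after the stop codon, so no later poly(A) signal could be seen there. The split by signal is therefore largely a split by whether a 3′ end was annotated. The 3 with such bases, H1-4, H4C3 and H4C9, had log2 fold changes of -0.14, -0.81 and 0.74. The rises among members with the signal include H2BC18, which passed the filter only through its siBYSL libraries. H2BC6, with the signal, and H4C9, without it, each had 1 siNC library past the filter level. The filter favours a higher siBYSL value in such genes. Members with the signal had a median total of 323 counts and those without it 136, and the part of count depth in this split was not tested. The split was made with the members' values known, and the annotation release used for counting is not given in the sources used here.

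**Figure D3:**
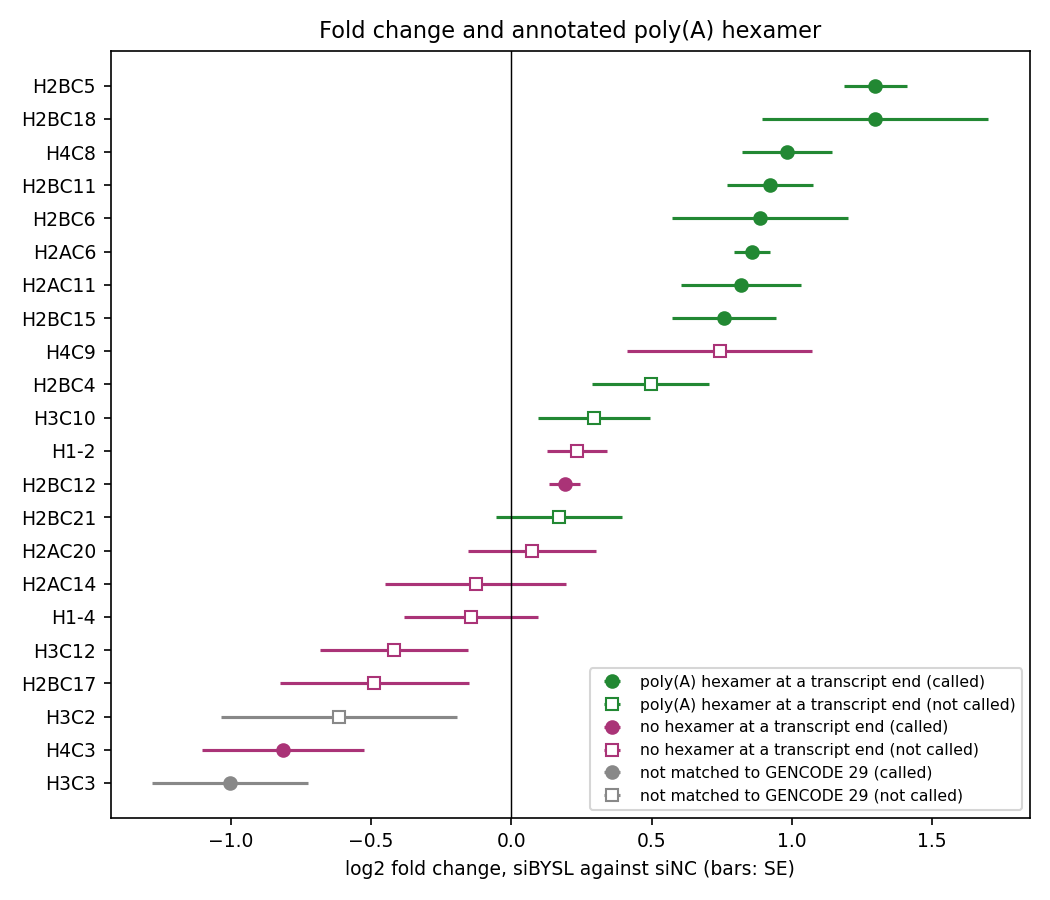
Log2 fold change of each tested member (bars, SE), coloured by whether AATAAA or ATTAAA stands in the last 50 bases of an annotated transcript, with H3C2 and H3C3, which had no matched model, in grey and filled points for members that passed the test. The 11 members with the signal lie between 0.17 and 1.30, and the 9 without it lie between -0.81 and 0.74.

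Several H2A and H2B genes share a promoter region and are transcribed away from each other. H2BC11 and H2AC11 start 292 bases apart, and both rose (log2 fold changes 0.92 and 0.82). H2BC4 and H2AC6 start 219 bases apart, and H2AC6 rose (0.86) while H2BC4 had a value of 0.50 that did not pass. H2BC12 and H2AC12 start 331 bases apart, and H2AC12 had too few counts to be tested. H2BC21 and H2AC20 start 323 bases apart and had values of 0.17 and 0.07, neither called. H3C12, an H3 gene, and H2BC17 start 357 bases apart and had values of -0.42 and -0.49, neither called. The annotated start of H3C12 lies inside the model of H2AC17, on the same strand. H2AC17 starts 314 bases from H2BC17 and was not tested, so H3C12 may not be the true divergent neighbour. Values within a pair were alike in sign in the 4 pairs in which both genes were tested, the H3C12 pair included, as a description without a test. The signs of H2BC21 and H2AC20 differed without siNC replicate 3 (-0.02 and 0.04) and without siBYSL replicate 3 (0.20 and -0.13).

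On chromosome 6 the members matched to GENCODE span 2167 kb, from 25726777 to 27893843. Of the 17 tested members with a matched model there, 8 rose and 1 fell. The RefSeq promoters of H3C2 and H3C3, which are not among the 17, also lie in this span, and H3C3 fell. The same span held 20 other tested genes, of which 7 rose and 4 fell, with a median log2 fold change of 0.097. Over all tested genes, 18.5% rose and 18.4% fell. On chromosome 1 the 10 members span 105.2 kb, and 1 of 3 tested rose. This was H2BC18, which passed the filter only through its siBYSL libraries. The 2 other tested genes in that span were not called.

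The knockdown siRNA's guide strand is uAUUCAGCaacgucaucuctt, with the seed (bases 2 to 8) in capitals. The heptamer that pairs with this seed, GCTGAAT, was absent after the stop codon of all 43 matched members, of which 25 had annotated bases there, and present in 12.7% of the other tested protein-coding genes.

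Most variant histone genes, which are also made outside S phase, fell. Of 10 tested variant and replication-independent histone genes, 7 fell and 2 rose, with a median log2 fold change of -0.23. For this and the lists below, 18.5% of all tested genes rose and 18.4% fell. H3-3B, which encodes the replacement histone H3.3, fell from 626 to 442 CPM (log2 fold change -0.50, adjusted p = 4.0e-05). The linker variant H1-10 fell (log2 fold change -0.51), and CENPA, the centromeric H3 variant, rose from 28.9 to 36.8 CPM (0.35). With scaling by library totals, 5 genes fell and 2 rose.

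Genes that make and process histone mRNA were more often lower than higher. Of 18 tested genes for its transcription and 3′ end processing, 7 fell and 1 rose, with a median of -0.15. LSM11, the U7 snRNP subunit, fell from 11.8 to 6.66 CPM (log2 fold change -0.83, adjusted p = 1.9e-04). SLBP, the stem-loop binding protein, had 127.6, 126.9 and 124.6 CPM in siNC and 103.5, 102.0 and 102.5 CPM in siBYSL (log2 fold change -0.30, adjusted p = 5.5e-04). The cleavage factor genes CSTF2 (-0.38) and CPSF3 (0.28) moved in opposite directions. With scaling by library totals 6 fell and 3 rose.

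**Figure D4:**
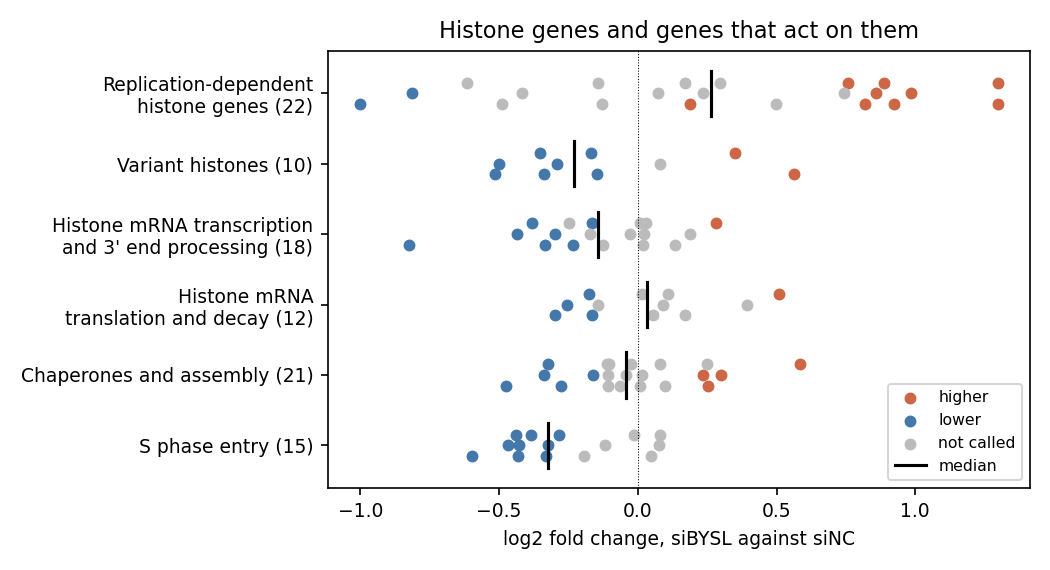
Log2 fold changes of the tested members and of the tested genes of 5 related lists, with 1 point per gene, coloured by call, and a bar at each median. Variant histones, histone mRNA processing genes and S phase genes lie mostly below 0, while the tested members reach from -1.0 to 1.30.

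The S phase list fell without a rise. Of 15 tested genes of S phase entry and cyclin-CDK2, 9 fell and none rose, also none at an unadjusted p under 0.05, with edgeR, DESeq2 and limma-voom alike, and the median was -0.33. With scaling by library totals 9 fell and 1 gene was higher at an unadjusted p under 0.05, without passing the adjusted threshold. TYMS, thymidylate synthase, had a log2 fold change of -0.44, and CCNE1, cyclin E1, fell from 22.6 to 14.9 CPM (-0.60). CDC6, a loader of the replicative helicase, and CDC25A, a phosphatase that activates CDK2, had values of -0.39 and -0.43 and also fell. The share of cells in S phase was not measured, and its part in the histone values was not tested.

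The remaining lists covered the later life of histone mRNA, poly(A) addition and histone assembly. Of 12 tested genes for translation and decay of histone mRNA, 4 fell and 1 rose, with CTIF, a translation factor of cap-bound mRNA, at 0.51 and the decapping enzyme DCP2 at -0.25. Some of these falls, SLBP among them, were also counted in the list of transcription and 3′ end processing. DESeq2 gave 3 falls and 1 rise, and scaling by library totals 2 falls and 1 rise. Of 15 tested genes for poly(A) addition to ordinary mRNAs, 3 fell (CPSF4, CLP1 and CPSF6, with -0.57, -0.37 and -0.29) and none rose, also none at an unadjusted p under 0.05 with edgeR, DESeq2 or limma-voom, although 1 rose with scaling by library totals. Of 21 tested histone chaperones and assembly factors, 4 rose and 5 fell, shares near those over all tested genes, among them CABIN1 (0.58), the importin IPO4 (-0.48), HJURP, the CENPA chaperone (-0.34), and RBBP4 (0.30).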

How the data were processed

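Gene counts came from a table the authors deposited for the 6 libraries, as whole raw counts per gene under Ensembl identifiers. HISAT2, DESeq2 and GRCh38.p13 are named per the submitters' processing notes, with neither version nor role. For the read counter, its strand setting and the gene annotation, nothing is given in the sources used here.

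Counts were filtered with filterByExpr by group (16412 genes left), scaled by TMM and compared by the edgeR quasi-likelihood F test with a group-only design in edgeR 4.0.16 and R 4.3.3, with Benjamini-Hochberg adjustment over all tested genes and a threshold of 0.05. Each SE was back-calculated from the F statistic, as |log2 fold change| over its square root. The common biological coefficient of variation was 0.0649. P-values describe variation between cultures of a single line. The test was tried on simulated counts. DESeq2 1.42.0 and limma 3.58.1 were alternatives, as were other scalings, other filters, a replicate block and leaving out each library. Named genes were BYSL, all tested members, the untested member with most counts and up to 4 genes of smallest p per list; not every gene that met this rule is reported here. Markers beyond AXL, CDH1, CAV1 and EPCAM were named after their values were seen. The members and lists were chosen with earlier results of these data known.

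Gene models came from GENCODE 29, matched by identifier, and promoters from RefSeq; sequence was searched with Python 3.11.15. Same-numbered libraries correlated in their deviations from the group means by no more than 0.0596, and the main fit did not pair cultures by number. With 3 libraries per group, these correlations cannot exclude that same-numbered cultures were set up together.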

Additional observations from a re-analysis of the deposited data

How the results depend on the processing

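Of the members called, H2AC6, H2BC5, H2BC11, H2BC15 and H4C8 passed under all 14 alternatives, and the calls of H2AC11, H2BC12, H2BC18, H2BC6, H3C3 and H4C3 did not. The count of members that rose (9) ranged from 6 to 11 over the alternatives. The count that fell (2) was 1 with scaling by library totals, upper-quartile factors or the DESeq2 Wald test, and 3 with no filter (H3C3, H4C2 and H4C3, among 45 tested). It was 0 with a stricter filter (edgeR, 1 CPM in 3 libraries), where 13 members were tested, without H3C3 and H4C3, and none had a fall at an unadjusted p under 0.05. Leaving out single libraries gave from 0 to 3 falls, with 0 without siNC replicate 1 and without siBYSL replicate 2, where edgeR gave 2 falls at an unadjusted p under 0.05.

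With the replicate block, 7 members rose and 1 fell. Same-numbered libraries correlated by -0.129, 0.0596 and 0.0106, and not every library correlated best with its own number.

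Leaving out single libraries also turned the sign of 4 uncalled members. H1-4 ranged from -0.29 to 0.04, and was above 0 without siNC replicate 1 (0.0346) or siBYSL replicate 2 (0.0449). H2BC21 ranged from -0.0182 to 0.478, H2AC14 from -0.22 to 0.01 and H2AC20 from -0.13 to 0.20. The causes were not tested. Counts under about 10 per library limit what can be seen in 23 of the 45 members.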
